A study of Mus musculus with 15 samples.

Results

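The S100 genes encode small calcium-binding proteins, and 8 of them were followed here in dendritic cells of the mouse thymus: S100a1, S100a4, S100a6, S100a8, S100a9, S100a10, S100a11 and S100a13. They are 8 of the 17 S100 genes, and of the 22165 genes, in the table of read counts. They were picked by name from that table with earlier results of these data known, which already listed S100a11 as higher in cDC2 of the knockout, so that difference and all values that include it are given as a description. The other 9 S100 genes had between 0 and 41 counts over all libraries, S100a3 the most, and are not described further.

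Expression was measured by strand-specific 3′ RNA sequencing in 15 libraries of sorted thymic dendritic cells. The mutant mice were Itgax-cre Stk11 fl/fl (KO), in which Cre driven by the CD11c promoter deletes the kinase LKB1, and the comparison mice were WT. The labels do not say whether WT mice carried Cre or the floxed allele. Mice of both genotypes and both sexes had a C57BL/6 background, were 8 to 12 weeks old when injected, and carried a subcutaneous B16 melanoma secreting Flt3L, a cytokine that expands dendritic cells, for 9 to 12 days. Conventional dendritic cells of type 1 (cDC1, sorted on CD8a) gave 2 WT and 2 KO libraries. Conventional dendritic cells of type 2 (cDC2, sorted on CD11b) gave 2 WT and 3 KO libraries, and plasmacytoid dendritic cells (pDC, sorted on Siglec-H) gave 3 WT and 3 KO libraries. Nothing in the labels says that replicates came from separate mice, so p-values measure the spread between these samples, which may be technical.

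S100 proteins carry a pair of EF-hand motifs that change shape when calcium binds and expose a surface for partner proteins. Most work as dimers inside the cell, on annexins, the cytoskeleton and membrane repair. Some are also released and act on receptors such as RAGE and TLR4. S100A8 and S100A9 are abundant in neutrophils and monocytes, where together they form calprotectin, and S100A4, S100A6, S100A10 and S100A11 occur in many myeloid cells.

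All 8 members lie on chromosome 3 (GRCm38, GENCODE M21). S100a1 (90511034 to 90514392, minus strand) and S100a13 (90514435 to 90524581, plus strand) point away from each other with starts 43 bases apart. S100a4 (90603771 to 90606045), S100a6 (90612882 to 90624181) and S100a8 (90668978 to 90670035) follow on the plus strand, and S100a9 (90692632 to 90695721) on the minus strand closes a stretch of 185 kb. S100a11 (93520488 to 93526287) and S100a10 (93555080 to 93564643) sit apart from these, 28.8 kb from each other. S100a4 shares exon bases with Gm42674, which had 0 counts, and S100a11 has an annotated pseudogene, S100a11-ps, so reads shared with that copy make its level uncertain. Promoter windows of RefSeq (GRCm38.p6; 250 bases before to 50 after the start) were matched for 7 of the 8. The upstream parts are shown for 3 members that differed between subsets, and the whole interval for the divergent pair, each cut before the first exon base of either annotation. All are written 5′ to 3′ on the plus strand, and capitals mark matches to the motifs named after them.
S100a11 (chr3:93520246-93520487): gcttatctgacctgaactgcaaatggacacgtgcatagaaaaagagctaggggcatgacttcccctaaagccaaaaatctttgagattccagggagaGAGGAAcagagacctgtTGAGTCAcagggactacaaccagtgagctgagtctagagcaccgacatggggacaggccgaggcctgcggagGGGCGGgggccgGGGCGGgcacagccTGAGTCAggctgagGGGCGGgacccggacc
S100a4 (chr3:90603520-90603769): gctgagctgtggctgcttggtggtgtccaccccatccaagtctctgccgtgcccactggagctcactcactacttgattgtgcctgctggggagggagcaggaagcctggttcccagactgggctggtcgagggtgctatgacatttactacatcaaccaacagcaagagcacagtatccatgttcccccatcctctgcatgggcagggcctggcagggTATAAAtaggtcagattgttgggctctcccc
S100a6 (chr3:90612644-90612881): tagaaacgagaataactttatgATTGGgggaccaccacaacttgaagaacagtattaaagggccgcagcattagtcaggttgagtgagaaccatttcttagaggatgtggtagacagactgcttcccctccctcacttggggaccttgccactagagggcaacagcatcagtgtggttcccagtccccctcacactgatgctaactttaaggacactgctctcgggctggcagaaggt
Between S100a1 and S100a13 (chr3:90514393-90514434): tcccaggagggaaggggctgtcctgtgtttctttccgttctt
Both strands were searched for a TATA box (letters TATAAA), the letters CCAAT, a GC box (letters GGGCGG), an AP-1 site (letters TGANTCA), the core of a CRE (letters TGACG), a C/EBP site (letters TTGCNNCAA) and an ETS core (letters GAGGAA), and no matches overlapped. The S100a11 window held 3 GC boxes, 2 AP-1 matches and 1 ETS core in the stretch shown. Of 32851 RefSeq windows of this length, 35.7% held a GC box, 7.81% an AP-1 match and 28.3% an ETS core. The S100a4 window held a TATA box beginning at position -31 from the RefSeq start, as did 13.6% of windows anywhere in their length. The capitals in S100a6 are CCAAT on the minus strand (37.4% of windows). These matches describe the letters only.

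Total counts ran from 3928164 (cDC2 WT 1) to 12142712 (cDC2 KO 2), and the 8 members held 0.0268% to 0.167% of them. The pDC and cDC2 sort labels were met by their markers. Siglech had 512589 counts, summed over libraries, in pDC WT against 1113 in cDC1 WT and 2127 in cDC2 WT. Itgam, which encodes CD11b, was at 102 and 105 CPM in cDC2 WT against 0.364 and 1.88 in cDC1 WT. Xcr1, a cDC1 receptor, was 468 to 658 CPM in cDC1 WT and still 65.1 to 226 in cDC2 WT. The 10 listed cDC1 markers summed to 10310 and 10940 CPM in cDC1 WT and to 7079 to 8548 in pDC WT. Of these 10 genes, 8 were lower in pDC WT than in cDC1 WT past the threshold used below, and 0 were higher. In KO, Itgam stood higher than in WT in the other subsets, at 11.5 ± 2.24 CPM in cDC1 KO against 1.12 ± 1.07 in WT and 65.8 ± 2.70 in pDC KO against 5.14 ± 2.46. Melanoma markers reached at most 0.581 CPM in sum. Stk11, the gene targeted, had a log2 difference of -0.49 ± 0.19, KO minus WT, averaged over the subsets, but tags at the 3′ end need not lie in the deleted part and this is no check of the deletion. CPM are counts scaled to the TMM-adjusted library size, given as mean ± SD over libraries. A 3′ tag count is not corrected for length, so levels are compared between samples and not between genes.

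S100a11, a partner of annexin A1 that takes part in plasma membrane repair, was high in cDC1 and low in pDC. It stood at 538 and 563 CPM in cDC1 WT, 213 and 215 in cDC2 WT, and 116, 110 and 129 in pDC WT. In the KO libraries it stood at 925 and 960 CPM in cDC1, at 509, 576 and 663 in cDC2, and at 178, 147 and 119 in pDC. The KO libraries lay above the WT libraries without overlap in cDC1 and cDC2, as did 19.3% and 23.1% of all tested genes, and overlapped them in pDC. Ordered by mean, the groups ran cDC1 KO, cDC2 KO, cDC1 WT, cDC2 WT, pDC KO and pDC WT, where cDC2 KO overlapped cDC1 WT and pDC KO overlapped pDC WT.

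S100a4, also called metastasin, which binds nonmuscle myosin heavy chain and promotes cell motility, was highest in cDC2 KO. Its values there were 264, 253 and 346 CPM, against 60.2 and 84.5 CPM in cDC2 WT. In cDC1 it was 47.4 and 30.2 CPM in WT and 61.0 and 58.5 in KO. In pDC it was at most 8.60 CPM in WT and 13.2 in KO, and 1 KO library had no count. The cDC2 KO libraries lay above cDC2 WT without overlap, as did 23.1% of all tested genes, and the difference did not pass (edgeR adjusted p = 0.3). No pDC library reached the lowest conventional one, and how many of all tested genes separate in this way was not counted.

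S100a6, or calcyclin, which binds the ubiquitin ligase adaptor CacyBP and several annexins, was also highest in cDC2. It stood at 273 and 254 CPM in cDC2 WT and at 381, 416 and 554 in cDC2 KO. It was 117 and 78.3 CPM in cDC1 WT, 104 and 144 in cDC1 KO, 181, 156 and 99.8 in pDC WT, and 206, 207 and 138 in pDC KO. Outside cDC2 the neighbouring groups overlapped. How many of all tested genes separate a subset in this way was not counted. By test in WT, S100a6 in cDC2 differed from cDC1, as given below. It did not differ past the threshold from pDC (-0.86 ± 0.31 in pDC against cDC2, edgeR adjusted p = 0.0519). S100a11 and S100a4 were lower by test in pDC than in both conventional subsets, in each genotype.

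S100a10, whose protein joins annexin A2 into a membrane-bound complex that also holds plasminogen at the cell surface, varied little between WT subsets. The WT libraries lay within 58.6 to 82.4 CPM in all 3 subsets. The cDC1 KO libraries were at 89.1 and 102 CPM and the cDC2 KO libraries at 123, 144 and 161, above all WT libraries. Neither difference from WT of the same subset passed by edgeR. Of all tested genes, 19.3% in cDC1 and 23.1% in cDC2 lay higher in KO without overlap. The pDC KO libraries, at 60.9, 72.3 and 52.4 CPM, were not above pDC WT.

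S100a13, which helps export proteins that lack a signal peptide, such as FGF1 and interleukin 1 alpha, showed broad overlap between groups. Its mean was lowest in cDC2 WT, with 24.8 and 33.4 CPM, against 67.3, 61.4 and 50.0 CPM in cDC2 KO. The other libraries ranged from 27.7 to 68.8 CPM. Its divergent neighbour S100a1, best known from heart muscle as a regulator of calcium cycling, followed another order. S100a1 was 16.2 and 17.5 CPM in cDC1 WT, 10.1 and 5.98 in cDC1 KO, 10.2 and 7.08 in cDC2 WT, and 3.42, 6.62 and 2.61 in cDC2 KO. It stayed at or below 3.15 CPM in pDC. The starts of these genes are 43 bases apart, yet Pearson's r between them over the 15 libraries was -0.02 on log2 CPM, given as a description of libraries that share subset and genotype.

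**Figure D1:**
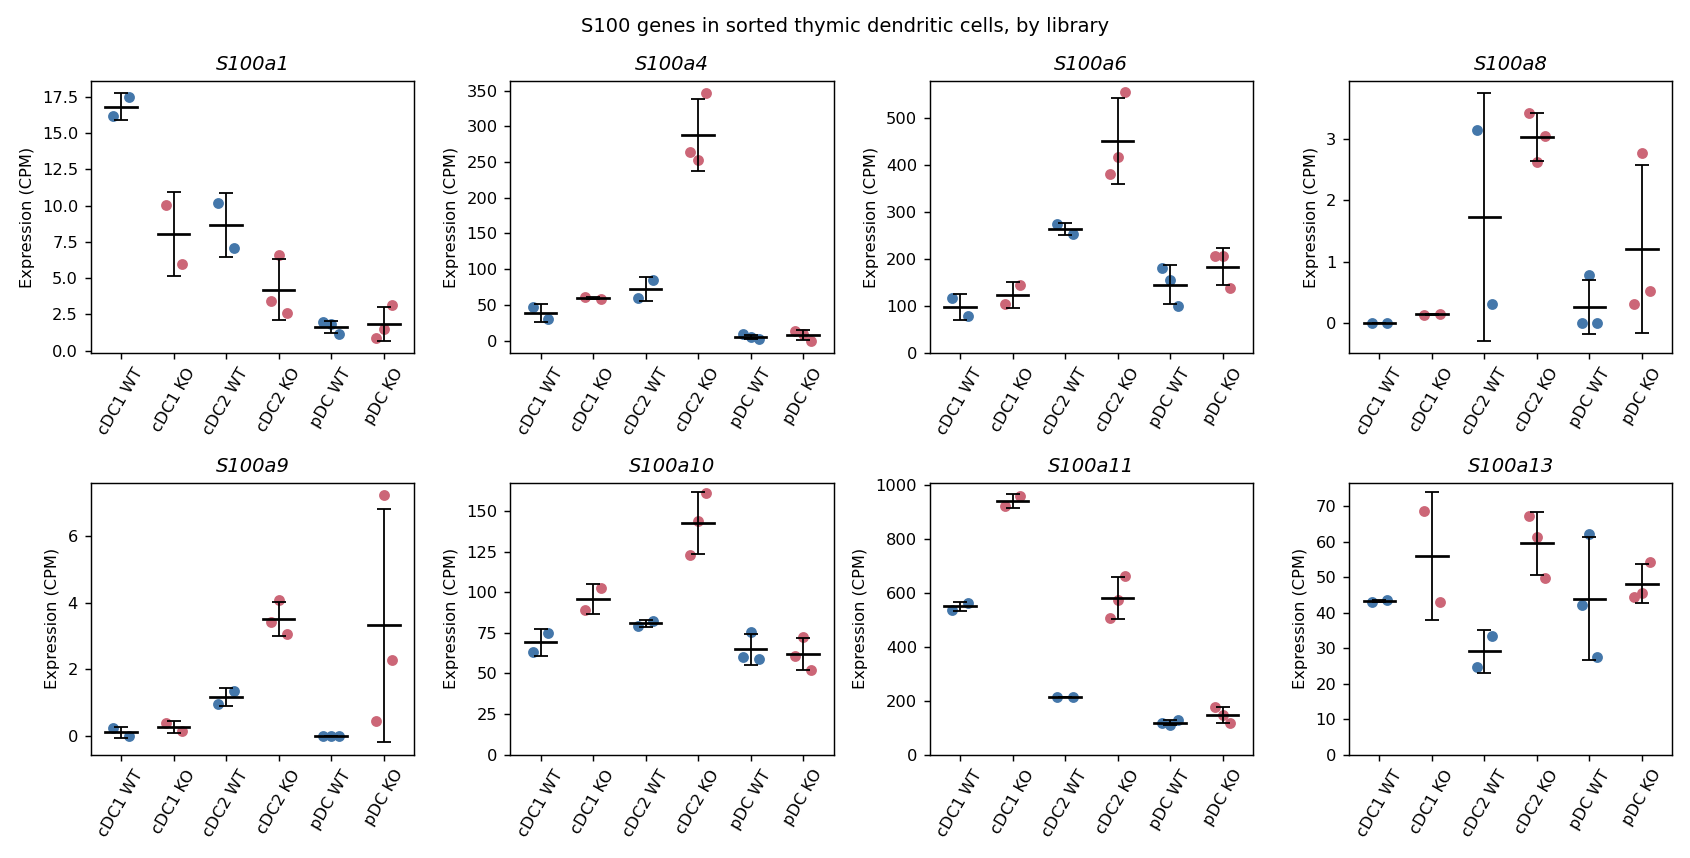
Expression of the 8 S100 genes in CPM (y axis, one scale per gene, linear) in each library, by subset and genotype (x axis; blue points WT, red points KO; bar and whiskers, mean and SD). S100a11 lies between 925 and 960 CPM in cDC1 KO and at most 178 CPM in pDC, while S100a8 and S100a9 stay below 8 CPM throughout.

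Between WT subsets, several members differed by more than the spread of the libraries. S100a11 was lower in cDC2 than in cDC1 by a log2 difference of -1.36 ± 0.27 (SE; edgeR quasi-likelihood test, Benjamini-Hochberg adjusted p = 0.00664), and S100a6 was higher by 1.44 ± 0.35 (adjusted p = 0.0176). These 2 of 8 members passed the threshold of 0.05, where 8.73% of the 11746 tested genes did. Without cDC2 WT 1, cDC2 WT 2 or cDC1 WT 2 the S100a6 call ended, with values of 1.17 to 1.80 over all fits without 1 library. At equal depth the cDC2 WT libraries held 10840 and 11359 genes with a count, against 12588 and 12642 in cDC1 WT. Spearman's rho of log2 CPM with transcript length was 0.0853 and 0.0883, against -0.11 and -0.0652 in cDC1 WT. The part of these in the subset differences was not tested.

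In pDC against cDC1, 3 of 8 members were lower in WT, where 27.7% of tested genes passed: S100a11 (-2.21 ± 0.24, adjusted p = 2.94e-06), S100a1 (-3.36 ± 0.64, adjusted p = 0.000714) and S100a4 (-2.93 ± 0.80, adjusted p = 0.0135, by edgeR). The share of 27.7% counts both directions, and 1744 of the 11746 tested genes were lower in pDC. The S100a4 call ended without cDC1 WT 1. In pDC against cDC2, 4 of 8 were lower, beside 23.6% of tested genes: S100a4 (-3.83 ± 0.81, adjusted p = 0.00296), S100a1 (-2.39 ± 0.63, adjusted p = 0.0101), S100a11 (-0.85 ± 0.24, adjusted p = 0.0168) and S100a9, with 0 counts in pDC WT against 13 in cDC2 WT, at least 9.77-fold lower (adjusted p = 0.0202, floor of 3 counts over the group, counting error only). The share of 23.6% counts both directions, and 1435 of the 11746 tested genes were lower in pDC. Leaving out a cDC2 WT library left 2 of the 4 calls of members. Calls of S100a1 and S100a11 ended without cDC2 WT 1, and of S100a9 and S100a11 without cDC2 WT 2. S100a10 and S100a13 passed in none of the 3 WT comparisons, with log2 differences of -0.32 to 0.23 and -0.57 to 0.59.

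The KO libraries were compared in the same way. S100a6 was again higher in cDC2 than in cDC1 (1.86 ± 0.34, adjusted p = 0.00609), 1 member of 8 beside 1.27% of tested genes, and the call ended without either cDC1 KO library. Against cDC1 KO, pDC KO was lower in S100a11 (-2.67 ± 0.25, adjusted p = 5.38e-07), S100a4 (-2.97 ± 0.79, adjusted p = 0.0134) and S100a1 (-2.12 ± 0.63, adjusted p = 0.0217), 3 members beside 21.5% of tested genes. The share of 21.5% counts both directions, and 1455 of the 11746 tested genes were lower in pDC KO. Without cDC1 KO 1, S100a11 alone of these 3 members passed. The S100a4 call also ended without cDC1 KO 2, and the S100a1 call without pDC KO 1 or pDC KO 2. Against cDC2 KO, 4 members were lower in pDC KO, beside 25.9% of tested genes: S100a4 (-5.24 ± 0.82, adjusted p = 0.000202), S100a11 (-1.98 ± 0.23, adjusted p = 3.65e-06), S100a10 (-1.21 ± 0.24, adjusted p = 0.0011) and S100a6 (-1.30 ± 0.28, adjusted p = 0.00231). The share of 25.9% counts both directions, and 1755 of the 11746 tested genes were lower in pDC KO. All 4 members kept their calls in each of the 15 fits without 1 library. In bulk samples, fewer cells of a type and less RNA per cell cannot be told apart.

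**Figure D2:**
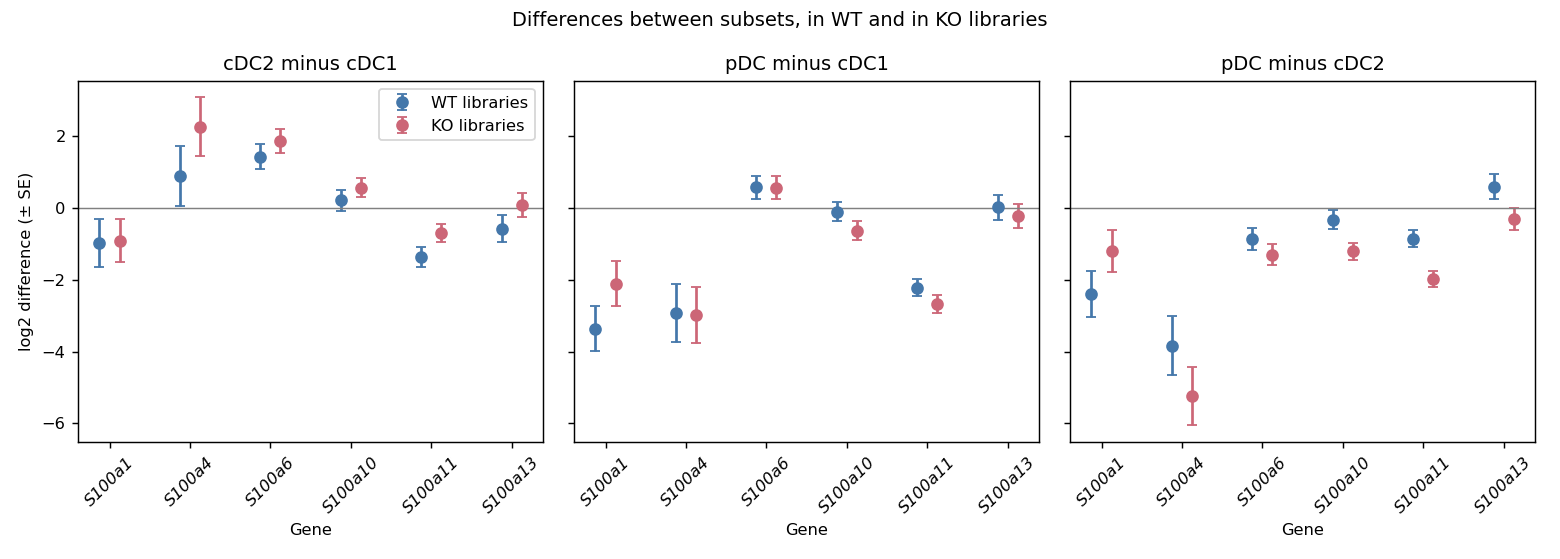
Log2 difference ± SE between subsets (y axis) for the 6 members with counts in nearly all libraries (x axis), in WT (blue) and KO (red) libraries, 1 panel per pair of subsets. S100a4 lies lowest in pDC against cDC2, at -3.83 in WT and -5.24 in KO, and S100a6 lies above 1.4 in cDC2 against cDC1 in both genotypes.

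The comparison of KO with WT asks how loss of LKB1 changes each subset. In cDC2, the mean of S100a11 was 214 ± 1.58 CPM over the 2 WT libraries and 582 ± 77.6 over the 3 KO libraries, a log2 difference of 1.45 ± 0.26. It was the 1 member of 8 past the threshold there, beside 0.119% of tested genes (DESeq2 also called 1, beside 1.87%). As this call was known when the genes were picked, nothing is read from the count. The call was close to the threshold and ended in 10 of 15 fits without 1 library, each cDC2 library among them, with log2 differences of 1.34 to 1.53. S100a4 had the widest difference of the well counted members (1.99 ± 0.81, adjusted p = 0.3). S100a13 (1.03 ± 0.35, adjusted p = 0.231), S100a10 (0.82 ± 0.27, adjusted p = 0.223) and S100a6 (0.77 ± 0.32, adjusted p = 0.3) did not pass by edgeR either, although their cDC2 groups did not overlap (23.1% of all tested genes lay higher in KO in this way). S100a1 pointed the other way (-1.01 ± 0.61, adjusted p = 0.496).

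The cDC2 WT libraries stood apart in ways that move with this comparison. At equal depth they held 10840 and 11359 genes with a count, against 12430 to 12760 in cDC2 KO. Across genes, their log2 CPM rose slightly with transcript length (Spearman's rho 0.0853 and 0.0883, against -0.0652 to 0.000878 in cDC2 KO, as a description). S100 transcripts are short: S100a4, at a median of 417 bases, was longer than 0.768% of tested genes and S100a11, at 511 bases, than 2.89%. Once each library was given offsets for transcript length and GC, the cDC2 differences were 1.24 for S100a11 and 1.73 for S100a4, while all tested genes moved by a median of -0.11. Of the summed marker lists, those of thymocytes and T cells (12 genes, 78.2 and 121 CPM in cDC2 WT against 45.5 to 63.2 in KO; Ptcra at 0 in WT and Rag2 at 0 in KO) and of pDC (8 genes, 1456 and 1857 CPM against 1033 to 1071) were lower in cDC2 KO without overlap. Monocyte markers (8 genes) summed to 741 and 1410 CPM in WT and 546 to 897 in KO, and mature dendritic cell markers (9 genes) to 770 and 1237 CPM in WT and 1082 to 1880 in KO, both overlapping. Among the last, Ccr7, the receptor of migrating dendritic cells, was 200 ± 129 CPM in WT against 631 ± 286 in KO, and Fscn1, an actin bundler of mature cells, 49.0 ± 20.2 against 170 ± 41.5 (named after their values were seen). Of the 9 mature markers only 5 had a positive log2 difference in cDC2 KO against WT, beside 55.25% of all tested genes. Their median was 0.27, beside 0.09 for all tested genes. None of these lists had a gene past the threshold in cDC2. The part of gene detection, maturation and other cells in these differences was not tested.

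In cDC1, no member passed (edgeR, 0 of 8, beside 0.0255% of tested genes; DESeq2 called 0, beside 0.153%). At an unadjusted p under 0.05 was 1 of 8, beside 3.83% of tested genes. The mean of S100a11 was 551 ± 18.0 CPM over the 2 WT libraries and 942 ± 24.6 over the 2 KO libraries, a log2 difference of 0.78 ± 0.27 (adjusted p = 0.981). S100a1 was at -1.07 ± 0.67 and S100a10 at 0.47 ± 0.29 (adjusted p = 1 each, by edgeR). The listed cDC1 markers (10 genes) summed to 10310 and 10940 CPM in cDC1 WT against 6949 and 8161 in cDC1 KO. Thymocyte and T cell markers (12 genes) summed to 184 and 221 CPM against 98.0 and 164, with Ptcra at 0 in KO. Neutrophil markers (14 genes) were also lower in KO, and NK cell markers (6 genes) higher, each without overlap. The part of other cells in the cDC1 differences was not tested. In pDC, edgeR called 0 of 8, beside 0.0681% of tested genes, and 1 of 8 was at an unadjusted p under 0.05, beside 10.6% of tested genes. S100a11 was at 0.32 ± 0.22 (adjusted p = 0.66) and S100a10 at -0.07 ± 0.24 (adjusted p = 0.976).

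Averaged over the subsets, S100a11 was at 0.85 ± 0.14 and was the 1 member of 8 past the threshold, beside 0.306% of tested genes, a value that includes the known cDC2 difference. The call ended in 6 of 15 fits without 1 library, those without each of the 4 cDC1 libraries, cDC2 KO 2 or cDC2 WT 1, at 0.82 to 0.86. Averaged over cDC1 and pDC alone, it was at 0.55 ± 0.17 and did not pass (edgeR adjusted p = 0.795). The difference of the KO effect between subsets passed for 0 of 8 members by edgeR and by DESeq2. Past the threshold were 0.00851% of tested genes for cDC2 against cDC1, and 0% for pDC against cDC1 and for pDC against cDC2. At an unadjusted p under 0.05 were 0, 1 and 3 of the 8 members, beside 8.46%, 8.26% and 8.41% of tested genes. The KO effects on these genes were therefore not shown to differ between subsets.

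Set beside all tested genes, the 6 well counted members had a median log2 difference, KO minus WT, of 0.42 in cDC1, 0.92 in cDC2 and 0.25 in pDC, where all tested genes had medians of 0, 0.09 and 0. In each subset 5 of the 6 were positive, beside 49.97%, 55.25% and 49.05% of all tested genes in cDC1, cDC2 and pDC. The 6 include S100a11, known to be higher in cDC2 KO when the genes were picked, so these values are a description. S100a1 was the negative member in cDC1 and cDC2, and S100a10 in pDC. Summed over the 8 members, expression was 1286 ± 38.7 CPM in cDC1 KO against 816 ± 12.1 in WT, 1534 ± 223 against 671 ± 9.39 in cDC2, and 455 ± 74.5 against 380 ± 53.0 in pDC. The sums are weighted to the genes with most tags. S100a11 alone had means of 942 against 551 CPM in cDC1, 582 against 214 in cDC2, and 148 against 119 in pDC.

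**Figure D3:**
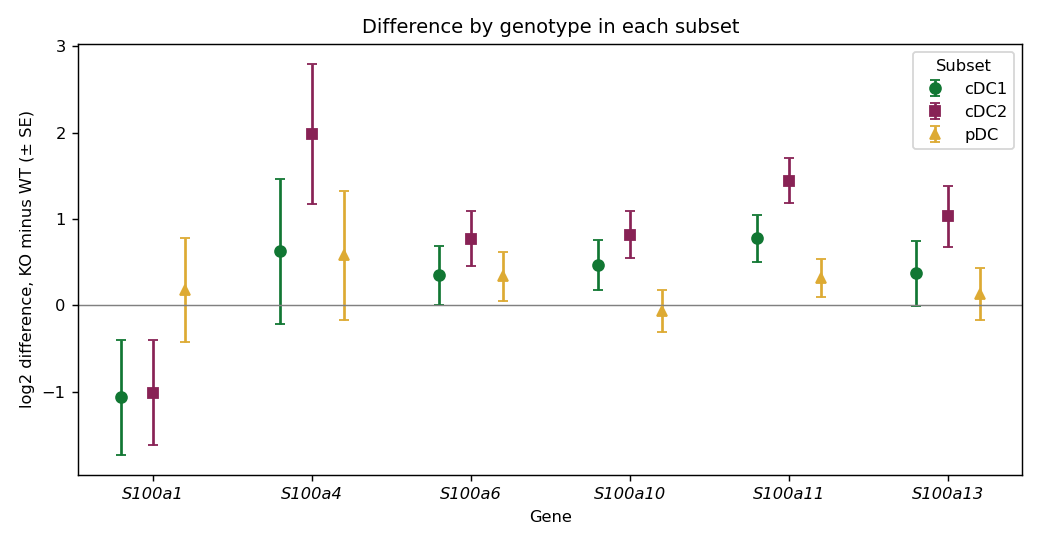
Log2 difference, KO minus WT, ± SE (y axis) for the 6 well counted members (x axis) in cDC1 (green circles), cDC2 (purple squares) and pDC (yellow triangles). The cDC2 values of S100a4, S100a6, S100a10, S100a11 and S100a13 lie between 0.77 and 1.99, each above the values of cDC1 and pDC, while S100a1 lies near -1 in cDC1 and cDC2.

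S100a8 and S100a9, the calprotectin subunits, were present in traces. S100a8 had 78 counts in cDC2 KO, 15 in cDC2 WT, 25 in pDC KO, 6 in pDC WT, 2 in cDC1 KO and 0 in cDC1 WT. S100a9 had 96 counts in cDC2 KO, 13 in cDC2 WT, 68 in pDC KO, 0 in pDC WT, 4 in cDC1 KO and 1 in cDC1 WT. Per library, S100a9 was at 3.42, 4.07 and 3.05 CPM in cDC2 KO against 0.971 and 1.36 in cDC2 WT. The KO libraries lay above WT without overlap, as did 23.1% of all tested genes, and the difference did not pass (edgeR adjusted p = 0.651).

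In pDC, S100a9 was at least 28.1-fold higher in KO than in WT (floor of 3 counts over the group), which did not pass in edgeR (adjusted p = 0.16) and passed in DESeq2 (adjusted p = 0.00258, where 1.17% of tested genes passed). The library pDC KO 2 held 52 of the 68 counts, and without it 16 counts remained and the bound was at least 10.4-fold higher (edgeR adjusted p = 0.268). Of 14 neutrophil markers, 7 had a count in pDC KO, with sums of 5.10 to 9.03 CPM, and 7 in pDC WT, with sums of 3.74 to 18.1 CPM. Ly6g, a defining neutrophil marker, had 36 counts in pDC KO 2 and at most 10 in the other pDC libraries. Ltf had 16 counts in pDC KO 2 and 0 in the other pDC libraries. Ngp had 8 counts in pDC KO 2, 9 in pDC KO 3 and 7 in pDC WT 3. Cd177 had 0 in pDC KO 2 and 24 in pDC WT 2, and Lcn2 had 81 in pDC WT 1. Camp, Lcn2, Mpo, Csf3r, Cxcr2, Mmp9 and Retnlg had 0 counts in pDC KO. Itgam, which encodes CD11b, was also higher in all pDC KO libraries, at 63.4 to 68.7 CPM against 2.97 to 7.81 in pDC WT. It belongs to the 7 listed cDC2 markers, of which 3 had a positive log2 difference in pDC KO against WT. Monocyte marker sums were 885 to 1154 CPM in pDC KO and 793 to 1453 in pDC WT. Macrophage marker sums were 2.45 to 5.28 CPM in pDC KO and 5.21 to 9.12 in pDC WT. In cDC2 the neutrophil marker sums were 12.95 and 23.55 CPM in WT and 14.04 to 16.7 in KO, with Ly6g at 0 in both, and single markers went either way. Csf3r was 1.21 and 4.13 CPM in WT against 5.95 to 7.99 in KO, and Ltf, Mmp8 and Retnlg had 16, 22 and 17 counts in KO and 0 in WT. Cxcr2 was 8.89 and 10.7 CPM in WT against 1.28 to 3.63 in KO. The part of neutrophils and other CD11b-bearing cells in the S100a8 and S100a9 counts was not tested.

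**Figure D4:**
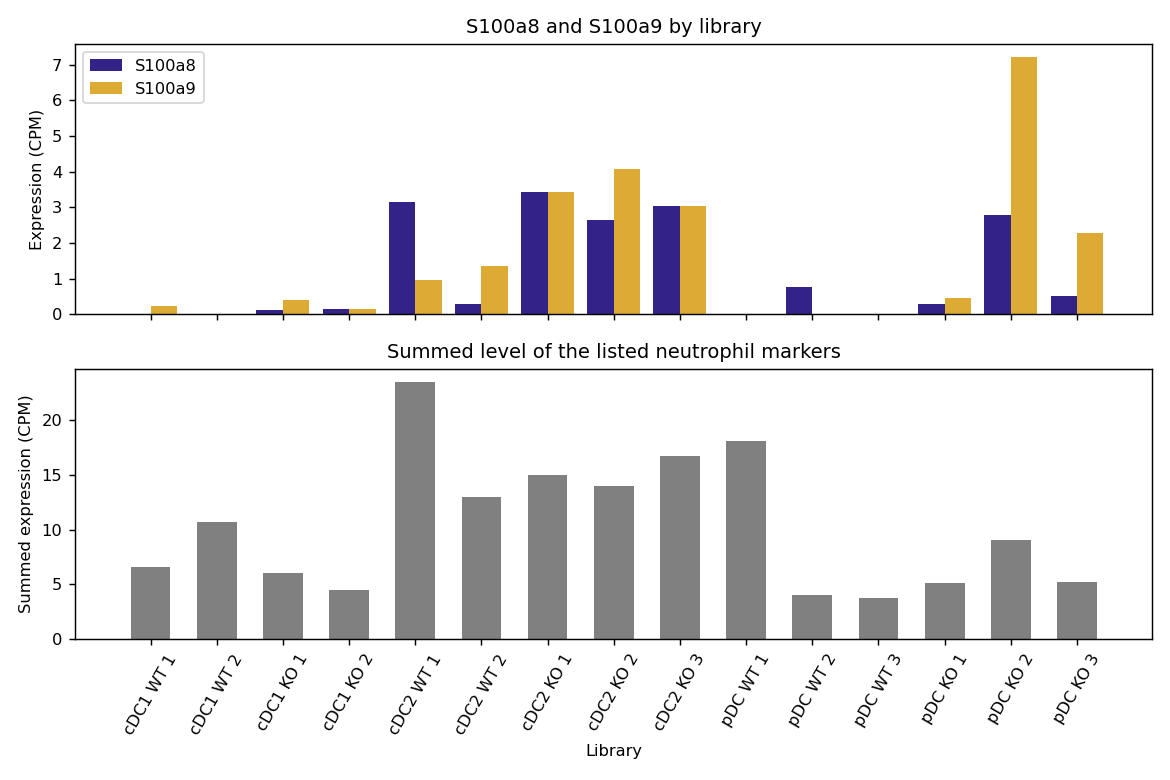
CPM per library (x axis) of S100a8 and S100a9 (upper panel, paired bars) and the summed CPM of 14 listed neutrophil markers (lower panel), on linear axes from 0. The highest S100a9 bar is pDC KO 2 at 7.22 CPM. The highest marker sums are in cDC2 WT 1 and pDC WT 1, at 23.6 and 18.1 CPM. Single genes weigh on these sums, such as Cxcr2 at 10.7 CPM in cDC2 WT 1 and Lcn2 at 10.6 CPM in pDC WT 1.

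Of 21 listed partners and receptors of S100 proteins, 19 were tested. In KO against WT, 0 of the 19 passed in any subset or on average (edgeR). Anxa2, the partner of S100a10, was at 0.54 ± 0.28 in cDC2 (adjusted p = 0.42), at 0.54 ± 0.25 in pDC (0.448) and at 0.19 ± 0.30 in cDC1 (1). In WT, 5 of 19 were lower in pDC than in cDC1 and 5 than in cDC2. Past the threshold in either direction, these counts lie near the 27.7% and 23.6% of all tested genes. Lower in pDC alone were 1744 and 1435 of the 11746 tested genes. In KO the counts of lower partners were 7 and 6, beside 21.5% and 25.9% in either direction and 1455 and 1755 genes lower. In pDC 0 partners were higher in any of the 4 comparisons. Cd36, a fatty acid receptor gene, was also lower in cDC2 than in cDC1 (1 of 19 in each genotype). Anxa1, the annexin bound by S100a11, was 186 ± 41.7 CPM in cDC1 WT and 89.1 ± 38.5 in cDC2 WT against 1.62 ± 1.20 in pDC WT, a log2 difference of -6.83 ± 0.73 from cDC1 (adjusted p = 3.82e-06). Anxa2 was 166 ± 22.4, 168 ± 33.4 and 76.6 ± 17.8 CPM in the same groups (-1.11 ± 0.27 in pDC against cDC1, edgeR adjusted p = 0.00538). S100a10 did not differ past the threshold between these WT subsets while its partner Anxa2 did. Myh9, the myosin heavy chain bound by S100a4, was lower in pDC than in cDC2 in WT (-1.25 ± 0.30, adjusted p = 0.00509). Cacybp, the partner of S100a6, was lower in pDC than in cDC1 in KO (-1.73 ± 0.30, edgeR adjusted p = 0.000426). The receptor genes Ager, for RAGE, and Tlr4 were at most 5.10 and 2.43 CPM in any library, and Ahnak, bound by S100a10 with annexin A2, ranged from 299 to 978 CPM in cDC2 KO and 533 to 643 in pDC WT.

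Of 22 tested genes of other EF-hand proteins, 0 passed in KO against WT (edgeR). In pDC against cDC1 in WT, 5 were higher and 8 lower, beside 27.7% of all tested genes in either direction. Ncald, a neuronal calcium sensor gene, was 72.6 ± 15.5 CPM in pDC WT against 0.481 ± 0.349 in cDC1 WT (adjusted p = 6.05e-08), and Aif1, an actin-bundling EF-hand protein of macrophages, was 10.5 ± 1.89 against 408 ± 12.5 (edgeR adjusted p = 3.80e-08). Low expression in pDC was thus not shared by all EF-hand genes. Of 8 tested genes for transcription factors linked to S100 expression, Spi1, which encodes the myeloid factor PU.1, was 224 ± 19.3 CPM in cDC1 WT, 160 ± 11.7 in cDC2 WT and 16.7 ± 2.79 in pDC WT (-3.74 ± 0.29 in pDC against cDC1, edgeR adjusted p = 5.46e-08). In that comparison 4 of the 8 were lower in pDC and 2 were higher, Jun among the latter (1.32 ± 0.36, edgeR adjusted p = 0.0104), and 0 of the 8 passed in KO against WT.

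The genes whose log2 CPM went most closely with each member over the 15 libraries were taken from 7401 tested genes of at least 10 CPM, as a description. For S100a11 they were Ldha (Pearson's r = 0.954), Naa10 and Hint1, for S100a4 Cd40 (0.954), Prpf31 and Tmem176b, and for S100a6 Cd300a (0.947), Bex6 and Ctnnd2. For S100a10 they were Tgm2 (0.914), Pitpna and Lactb, for S100a1 Hepacam2 (0.930), Fnip2 and Tshz1, and for S100a13 Rpl13a (0.855), Bcap31 and Traf3ip3. For the traces of S100a9 they were Itgam (0.848), Rsad2 (0.825) and Isg20 (0.815), and for those of S100a8 Bex6 (0.861), Rsad2 and Ifi206. After the mean of each subset was subtracted, S100a11 went with S100a10 at r = 0.856 and with S100a6 at r = 0.715. It went against S100a1 at r = -0.77, and S100a1 and S100a13 were at r = -0.22. The difference between genotypes remains in these values. The closest genes to S100a9 were then Rrm2 (0.875), Oasl1 and Wdr74.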

How the data were processed

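Values are raw counts of reads for each gene in each library, deposited by the authors as whole numbers without normalization. Per the submitters' processing notes, the build was mm10 and the tools included HTSeq, STAR and DESeq2, for which the sources used here give no versions, nor do they say how duplicates were handled. Ensembl IDs were matched to GENCODE M21 (GRCm38), where 21745 of 22165 genes had a symbol. Some items are not reported here.

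Genes were kept by filterByExpr on the 6 groups, which left 11746, among them all 8 members. Counts were scaled by TMM and fitted over all 15 libraries with edgeR 4.0.16 (R 4.3.3; robust quasi-likelihood, 1 coefficient per group). The 13 contrasts used two-sided tests with Benjamini-Hochberg adjustment over all tested genes and a threshold of 0.05. SE is the log2 difference divided by the square root of F. The members, the 19 gene lists and the tests were chosen with earlier results of these data known. All 8 members are named, with listed genes past the threshold (up to 4 per list and comparison), 7 partners whatever their values, and the 3 tested genes most correlated with each member. Of these the text names those that bear on the members. The fit was tested on simulated data with known changes. The alternatives tried were DESeq2 1.42.0, RLE scaling, limma 3.58.1 (voom with sample weights), no filter, a filter at 10 CPM in 2 libraries, length and GC offsets, the replicate block with and without offsets, only the groups compared, and each library left out.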

Additional observations from a re-analysis of the deposited data

How the results depend on the processing

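Over 2458 values for members under alternatives, 2330 kept their direction and side of the threshold, 52 moved with no call at stake, 28 newly passed, 48 no longer passed and 0 reversed. The cause was not tested. The number of members past the threshold in KO against WT in cDC2 (1) was 0 with RLE scaling, limma voom, the replicate block, the replicate block with length and GC offsets and only the groups compared, 2 without a filter, where S100a4 also passed, and 0 to 1 without 1 library. In pDC (0) it was 1 with DESeq2 and 1 without a filter. For the average (1) it was 2 with DESeq2, 2 without a filter, 0 without the cDC2 libraries (added after the data were seen), and 0 to 2 without 1 library. Between subsets, cDC2 against cDC1 in WT (2) gave 0 with only the groups compared and 1 to 2 without 1 library. In WT, pDC against cDC2 (4) gave 1 with voom, 1 with only the groups compared and 2 to 5 without 1 library. In KO, cDC2 against cDC1 (1) gave 5 with voom, 2 without a filter, 4 with only the groups compared and 0 to 2 without 1 library. In KO, pDC against cDC1 (3) gave 1 with only the groups compared and 1 to 3 without 1 library.

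The replicate numbers were not found to pair samples. Same-numbered KO and WT libraries deviated together with r = -0.15 in cDC1, 0.0888 and -0.0571 in cDC2, and -0.0417, 0.0229 and -0.0357 in pDC. Across the subsets of 1 genotype, r ran from -0.18 to 0.18 over 13 same-numbered pairs and was above 0.1 in 1 of them. Deviations were taken from group means, so in a group of 2 libraries they mirror each other. In cDC1 the pairs of unlike number were at 0.15 for this reason. Few of these values are independent, so the check cannot show that samples were unpaired. With the replicate block S100a11 in cDC2 was at 1.44, and S100a1 in pDC against cDC1 in KO was past the threshold neither in that fit nor in the replicate block with length and GC offsets (-1.90, adjusted p = 0.101). With the cDC1 WT numbers crossed, a choice made after the data were seen, KO against WT in cDC2 had 0 members past the threshold. RLE scaling moved the median of all tested genes by 0.105 in the difference of the KO effect between pDC and cDC2. Traces such as S100a8 and S100a9 are limited by depth, at most 96 counts per group.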
